A study of Mus musculus with 6 samples.

Results

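The genes described here encode proteins of the fibrous sheath and the outer dense fibers, the accessory structures of the sperm tail. They are Akap3, Akap4, Ropn1, Ropn1l, Fsip1 and Fsip2 on the side of the fibrous sheath, and Odf1, Odf2, Odf3 and Odf4 on the side of the outer dense fibers, chosen by name from the table of gene expression. All 10 were found among the 54532 genes of that table. The data are RNA-seq of total RNA from STRA8+ germ cells that were isolated from mouse testes as cell suspensions, in 3 control libraries, whose genotype is given as Cre, and 3 libraries of cells whose genotype is given as an Srsf1 knockout. Both groups carry the treatment label of a conditional knockout, and the second group is called cKO below. SRSF1, the product of the targeted gene, is a serine/arginine-rich splicing factor. The labels used here name neither the driver of Cre nor the strain and age of the mice. They do not say that the libraries came from separate animals, so the p-values below measure the spread between these libraries, which may be technical.

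The tail of a mammalian sperm is built around a microtubule axoneme. Outer dense fibers run along the doublets of the axoneme through the midpiece and principal piece, and the fibrous sheath surrounds them in the principal piece, where it holds signalling and glycolytic enzymes. A-kinase anchoring proteins form the frame of the sheath and bind the regulatory subunits of protein kinase A, or proteins with a similar docking domain such as the ropporins. The parts of both structures are made and assembled in spermatids, the haploid cells that follow meiosis, whereas STRA8 is the retinoic acid response protein of differentiating spermatogonia and of cells that enter meiosis.

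Expression was measured as FPKM, the fragments counted on a gene per kilobase of its length, scaled to the size of the library. Between 15364511 and 17310353 fragments were counted per control library and between 14447887 and 15326722 per cKO library. Srsf1 stood at 84.7, 45.2 and 51.9 FPKM in control replicates 1, 2 and 3 and at 5.08, 4.94 and 5.17 FPKM in the cKO libraries, so the cKO mean was 8.36% of the control mean. Stra8 itself was high in both groups, at 222.1 to 261.7 FPKM in the control libraries and 242.1 to 312.7 in the cKO libraries. Control replicate 2 stood apart from the other controls in genes of elongating spermatids and in some markers of somatic cells. The summed FPKM of 7 such markers was 8536 in control replicate 2, against 2580 and 2543 in control replicates 1 and 3 and 2.53 to 3.87 in the cKO libraries. The summed FPKM of 6 Leydig cell markers was 14.0 in control replicate 2 against 5.45 and 2.95 in control replicates 1 and 3, with Insl3 at 9.74 against 2.14 and 0, and that of 4 peritubular cell markers was 4.76 against 2.11 and 1.75. Whether this spread has a part in the differences below was not tested beyond leaving out that library.

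Of the 10 genes, 9 were lower in the cKO libraries and none was higher at an adjusted p of at most 0.05 (limma on log2(FPKM + 1), Benjamini-Hochberg adjustment over the 15451 genes that averaged at least 1 FPKM over the libraries). Across those 15451 genes, 22.2% were called lower and 11.8% higher. Fsip1 was not called. The median log2 fold change of the 10 genes was -4.69, against -0.0082 for all genes tested. In 9 of the 10 genes every cKO library lay below every control library, which was so for 28.6% of the genes tested. Summed over the 10 genes, expression was 493.7 to 1000.6 FPKM in the control libraries and 24.0 to 28.3 in the cKO libraries. In RNA from a mixture of cells, fewer cells of a type and less RNA per cell cannot be told apart. With the 7 genes whose cKO mean was under 1 FPKM (Akap3, Akap4, Odf1, Odf3, Odf4, Ropn1 and Fsip2), the filter was passed through the control libraries alone, and such a gene had to differ to be tested. The pseudocount of 1 FPKM also bounds the fold changes of genes near 0 in cKO, and limma-voom on the recovered fragments gave log2 fold changes of -10.08 for Akap4, -9.50 for Odf1, -9.38 for Ropn1, -8.05 for Odf4, -6.02 for Akap3, -4.14 for Odf3 and -2.17 for Fsip2.

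**Figure D1:**
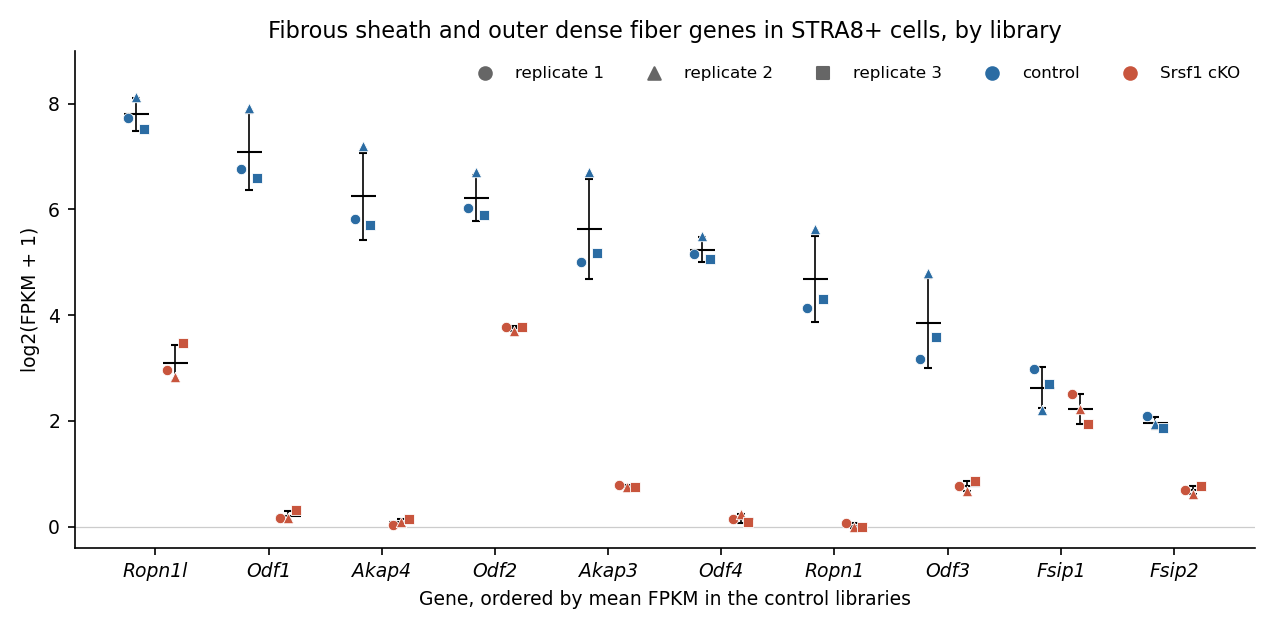
Expression of the 10 genes as log2(FPKM + 1) in each library, with blue symbols for control and red for cKO, the symbol shape for the replicate number, and a black line with bars for the mean and SD (n = 3) of each group. The cKO symbols lie below the control symbols for 9 genes and overlap them for Fsip1.

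AKAP3 and AKAP4 are the main structural proteins of the fibrous sheath. AKAP4, encoded on the X chromosome, is made as a precursor that is cut before it joins the sheath, and AKAP3 is thought to organise the basic structure of the sheath. Akap4 (chrX:7067519-7078609, plus strand, 6 exons in its longest coding transcript, 849 residues) stood at 55.8, 145.5 and 51.3 FPKM in the control libraries and at 0.0210, 0.0677 and 0.109 FPKM in the cKO libraries. The cKO values were 1, 3 and 5 fragments, against 2686 to 6753 in the control libraries. Akap4 was thus close to the limit of detection in every cKO library, and the mean in cKO was 0.0781% of that in control, or 0.123% without control replicate 2. On the log2(FPKM + 1) scale it fell by 6.15 (SE 0.37, limma adjusted p = 3.84e-05), and 17 of the 15451 genes tested fell further. Per fragment counted on genes, control exceeded cKO 1218-fold, with an exact 95% interval of 641.5 to 2664 that covers counting error only.

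Akap3 (chr6:126853098-126874308, plus strand, 6 exons, 864 residues) was measured at 31.0, 104.0 and 35.0 FPKM in the control libraries and at 0.727, 0.693 and 0.689 FPKM in the cKO libraries. The cKO libraries held 36, 32 and 33 fragments of it and were closer to each other than the control libraries, of which control replicate 2 was 3.15 times the mean of the other two. The gene fell by 4.86 on the log2(FPKM + 1) scale (SE 0.42, limma adjusted p = 0.000194), and the cKO mean was 1.24% of the control mean, or 2.13% without control replicate 2. The fall was smaller than that of Akap4 by 1.29, or by 2.94 with a pseudocount of 0.1, with no overlap between the groups in the difference of the pair per library at the pseudocount of 1. The exact two-sided permutation test of that difference gave p = 0.1, the smallest value that 3 libraries against 3 allow.

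The start regions of these anchoring genes are shown because they share an unbroken run of letters. Promoter sequences of 300 bases (250 before to 50 after the start, RefSeq, GRCm38.p6) were given for 8 of the 10 genes in 12 entries, namely 4 for Odf2, 2 for Akap4 and 1 each for Akap3, Odf3, Odf4, Ropn1, Ropn1l and Fsip2. Odf1 and Fsip1 had no entry. The 250 bases before the start of Akap3 (chr6:126852848-126853097, plus strand) and before the upstream start of Akap4 (chrX:7067265-7067514, plus strand) are printed 5′ to 3′, with the shared run in capitals.
Akap3: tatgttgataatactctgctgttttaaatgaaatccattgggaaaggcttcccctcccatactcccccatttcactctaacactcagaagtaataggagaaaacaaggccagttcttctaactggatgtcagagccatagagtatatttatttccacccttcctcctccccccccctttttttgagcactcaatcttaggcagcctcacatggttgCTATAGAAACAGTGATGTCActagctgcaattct
Akap4: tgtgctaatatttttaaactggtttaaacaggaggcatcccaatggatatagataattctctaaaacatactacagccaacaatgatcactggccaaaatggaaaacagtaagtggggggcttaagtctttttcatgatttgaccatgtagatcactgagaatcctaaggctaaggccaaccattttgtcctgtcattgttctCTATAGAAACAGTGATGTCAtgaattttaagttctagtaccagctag
The run CTATAGAAACAGTGATGTCA of 20 bases lay 34 to 15 bases before the start of Akap3 (chr6:126853064-126853083) and 47 to 28 bases before that of Akap4 (chrX:7067468-7067487), in the same orientation. Of all 32851 promoters, searched on both strands, 2 held it, which were these. Over the 59 pairs of promoters that belong to different genes of the 10, the longest shared run had a median of 9 bases, and the next longest was 14. The run ends in TGATGTCA, which differs from the cAMP response element TGACGTCA in a single base. This variant was looked for after the sequences had been seen, on both strands. It was present in the promoters of Akap3 and Akap4, as in 3.62% of all promoters. Akap3 held it again, beginning 1 base before the start and running past it. The element TGACGTCA itself was in none of the 12 entries and in 1.79% of all promoters. These matches describe the letters only.

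ROPN1 and ROPN1L are ropporins, small proteins with the docking domain of the protein kinase A regulatory subunits, and bind to AKAP3 in the fibrous sheath. ROPN1L is also known from the radial spokes of motile cilia. Ropn1l (chr15:31441211-31453737, minus strand, 5 exons, 218 residues) had the highest FPKM of the 10 genes in the control libraries, at 211.6, 279.7 and 183.6, with the gene lengths of the deposited table. It stood at 6.78, 6.14 and 10.2 FPKM in the cKO libraries, and kept 3.42% of the control mean. All cKO libraries were below all control libraries, and the gene fell by 4.71 on the log2(FPKM + 1) scale (SE 0.21, limma adjusted p = 1.03e-05). The processed pseudogene Gm6361 overlaps Ropn1l on the same strand, and 100% of the 100-base windows of Ropn1l occurred in no other annotated gene.

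Ropn1 (chr16:34649921-34678618, plus strand, 6 exons, 212 residues) was measured at 16.7, 48.3 and 18.7 FPKM in the control libraries. In the cKO libraries it was 0.0474, 0 and 0 FPKM, a total of 1 fragment against 1797 in the control libraries. It fell by 4.67 (SE 0.37, limma adjusted p = 0.000128), a value that the pseudocount of 1 FPKM bounds. Per fragment counted on genes, control exceeded cKO 1612-fold, with an exact 95% interval from 289.0 to 63705 that covers counting error only. All cKO libraries were under 3 fragments, and the ratio rests on 1 fragment of cKO replicate 1. The ratio also leans on control replicate 2, without which the control mean was 17.7 FPKM instead of 27.9. On the log2(FPKM + 1) scale Ropn1l and Ropn1 had fallen nearly alike, with a difference of -0.04 and groups that overlapped (exact two-sided permutation test, p = 0.9). With a pseudocount of 0.1 the direction of that difference turned, and Ropn1 fell further than Ropn1l by 2.90 (exact two-sided permutation test, p = 0.1, with p adjusted over the 5 pairs also 0.1).

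FSIP1 and FSIP2 were named as proteins that interact with AKAP4 in the fibrous sheath, and FSIP2 is a very large protein. They had the lowest control levels of the 10 genes and the smallest fold changes. Fsip1 (chr2:118130424-118256966, minus strand, 12 exons, 593 residues) stood at 6.86, 3.61 and 5.48 FPKM in the control libraries and at 4.70, 3.66 and 2.85 FPKM in the cKO libraries. The groups overlapped, and control replicate 2 was the lowest of the controls. Its log2 fold change was -0.40 (SE 0.23, limma adjusted p = 0.22). Over the alternative settings the adjusted p ranged from 0.058 to 0.76 and the log2 fold change from -0.61 to -0.10. Of its 100-base windows, 98.8% occurred in no other annotated gene, and the rest were shared with Gm29232, which overlaps it on the same strand.

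Fsip2 (chr2:82943634-83008937, plus strand, 23 exons, 6995 residues) was measured at 3.25, 2.84 and 2.64 FPKM in the control libraries and at 0.623, 0.543 and 0.712 FPKM in the cKO libraries. Through its length these low levels rested on 921 to 1133 fragments per control library and 168 to 229 per cKO library. The groups did not overlap, the controls were close to each other, and the cKO mean was 21.5% of the control mean, the largest share among the 9 genes that fell. Fsip2 fell by 1.26 on the log2(FPKM + 1) scale (SE 0.13, limma adjusted p = 0.000473). The log2 fold change of Fsip1 was above that of Fsip2 by 0.86, or by 1.57 with a pseudocount of 0.1, with no overlap between the groups at the pseudocount of 1 (exact two-sided permutation test, p = 0.1).

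ODF1 and ODF2 are the main structural proteins of the outer dense fibers. ODF1 is a small protein rich in cysteine that binds other fiber proteins, and ODF2 is also a component of the appendages of the mother centriole in many cell types. Odf1 (chr15:38219203-38226735, plus strand, 2 exons, 248 residues) stood at 108.2, 241.7 and 95.2 FPKM in the control libraries and at 0.115, 0.124 and 0.238 FPKM in the cKO libraries. The cKO values were 2, 2 and 4 fragments, and cKO kept 0.107% of the control mean, or 0.156% without control replicate 2. Odf1 fell by 6.88 (SE 0.33, limma adjusted p = 1.34e-05), the largest fall of the 10 genes on this scale, and 7 of the genes tested fell further. Per fragment counted on genes, control exceeded cKO 883.8-fold, with an exact 95% interval of 448.3 to 2048.

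Odf2 (chr2:29889221-29931746, plus strand, 25 annotated transcripts of which 14 are coding, 830 residues in the longest coding transcript) was measured at 64.5, 103.7 and 58.5 FPKM in the control libraries and at 12.7, 12.0 and 12.7 FPKM in the cKO libraries. It kept the highest level of the 10 genes in cKO, with 1741 to 1976 fragments per library, and the cKO libraries were nearly level with each other. The gene fell by 2.46 on the log2(FPKM + 1) scale (SE 0.20, limma adjusted p = 0.000149) and kept 16.5% of its control mean. The fall of Odf1 exceeded that of Odf2 by 4.42, or by 6.52 with a pseudocount of 0.1, without overlap between the groups at the pseudocount of 1 (exact two-sided permutation test, p = 0.1). The gene length used for Odf2 in the deposited table, 9919 bases, is 3.11 times its longest coding transcript, the largest such ratio of the 10 genes. Its level per length would be higher against that transcript, whereas the ratio of cKO to control FPKM does not depend on the length. A small nuclear RNA gene, Gm23865, lies within it on the opposite strand.

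ODF3 and ODF4 were both named for the outer dense fibers of the sperm tail. Odf3 (chr7:140847805-140851018, plus strand, 6 exons, 280 residues) stood at 8.03, 26.8 and 11.0 FPKM in the control libraries and at 0.709, 0.596 and 0.829 FPKM in the cKO libraries. Control replicate 2 was 2.82 times the mean of the other two, and all controls were above all cKO libraries. Odf3 fell by 3.08 (SE 0.39, limma adjusted p = 0.00108) and kept 4.66% of its control mean, or 7.49% without control replicate 2. It is overlapped on the opposite strand by Gm45785, and whether the counting used strand is not given in the sources used here.

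Odf4 (chr11:68921835-68927081, minus strand, 5 exons, 290 residues) was measured at 34.7, 44.4 and 32.3 FPKM in the control libraries and at 0.109, 0.176 and 0.0564 FPKM in the cKO libraries. The cKO values were 2, 3 and 1 fragments, and the 3 controls lay close together. The gene fell by 5.09 on the log2(FPKM + 1) scale (SE 0.14, limma adjusted p = 1.79e-06), the smallest adjusted p of the 10 genes, and cKO kept 0.306% of the control mean. Odf4 fell further than Odf3 by 2.01, or by 3.41 with a pseudocount of 0.1, with no overlap between the groups at the pseudocount of 1 (exact two-sided permutation test, p = 0.1). Over the 5 pairs compared, the adjusted p was 0.125 for each of the 4 pairs without overlap, a design in which none could pass 0.05.

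Ordered by mean FPKM in the control libraries, the genes ran from Ropn1l (225.0) through Odf1 (148.4), Akap4 (84.2), Odf2 (75.6), Akap3 (56.7), Odf4 (37.1), Ropn1 (27.9) and Odf3 (15.3) to Fsip1 (5.32) and Fsip2 (2.91). The ranges of neighbours in that order overlapped between the 3 libraries, except between Odf3 and Fsip1 and between Fsip1 and Fsip2. The order rests on the gene lengths of the deposited table, which were 3.11 times the longest coding transcript for Odf2 and 1.535 times for Ropn1. Against transcript lengths Odf2 and Ropn1 would stand higher relative to Ropn1l, and the order was not recomputed. The order in the cKO libraries was another. Odf2 (12.4 FPKM), Ropn1l (7.70) and Fsip1 (3.74) came first, each without overlap with the next. Odf3 (0.711), Akap3 (0.703) and Fsip2 (0.626) followed with overlapping neighbours, and Odf1 (0.159), Odf4 (0.114), Akap4 (0.0658) and Ropn1 (0.0158) came last, also with overlapping neighbours.

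The spread among the control libraries was not alike for all 10 genes. Control replicate 2 was the highest control for 8 of them and more than 2 times the mean of control replicates 1 and 3 for 5. For Akap3 that ratio was 3.15, for Odf3 2.82, for Ropn1 2.73, for Akap4 2.72 and for Odf1 2.38. Odf2 (1.69), Ropn1l (1.42) and Odf4 (1.32) showed smaller ratios, and Fsip2 (0.964) and Fsip1 (0.585) were not raised in that library. The same ratio was 3.33 for the sum of 7 elongating spermatid markers, 2.09 for the sum of 8 round spermatid markers, 1.07 for that of 7 pachytene spermatocyte markers, 0.780 for that of 8 early meiotic prophase markers and 1.02 for that of 6 markers of differentiating spermatogonia. For the sums of somatic markers it was 3.33 for Leydig cells, 2.47 for peritubular cells, 1.66 for macrophages and blood and 0.692 for Sertoli cells. The ratio was 1.36 for Leydig cells without Insl3 and 1.70 for peritubular cells without Acta2. Without control replicate 2 the same number of the 10 genes, 9, was called lower. The log2 fold changes then ranged from -6.47 for Odf1 and -5.68 for Akap4 to -1.28 for Fsip2 among the genes called, and were -4.32 for Akap3 and -2.60 for Odf3.

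**Figure D2:**
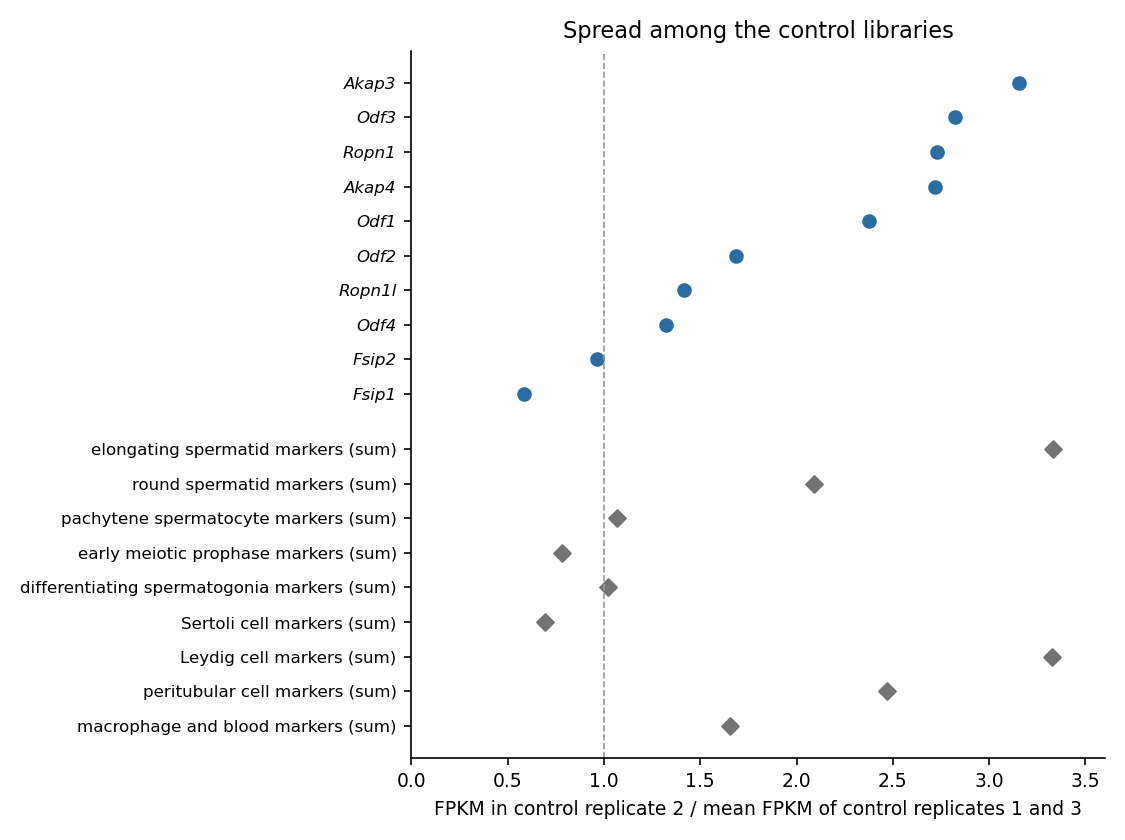
FPKM in control replicate 2 divided by the mean FPKM of control replicates 1 and 3, for each of the 10 genes (blue circles) and for the summed FPKM of the lists of germ cell and somatic markers (grey diamonds), with the dashed line at 1. Akap3 (3.15) lies highest of the genes and Fsip1 (0.585) lowest, and the elongating spermatid and Leydig cell markers (both 3.33) lie highest of the lists.

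Marker genes of the germ cell stages were read in the same libraries. Of the markers of differentiating spermatogonia 1 of 6 was called lower (Dmrtb1, a regulator of the switch from mitosis to meiosis) and none higher. Of the early meiotic prophase markers 2 of 8 were called lower (Spo11, which makes the meiotic DNA breaks, and Rec8, a meiotic cohesin) and none higher. Both counts are near the share over all genes tested, of which 22.2% were called lower and 11.8% higher. All 7 pachytene spermatocyte markers, all 8 round spermatid markers and all 7 elongating spermatid markers were called lower, with median log2 fold changes of -2.95, -2.60 and -8.29. Of these, 2 pachytene, 5 round spermatid and 6 elongating spermatid markers had a cKO mean under 1 FPKM and passed the filter through the control libraries alone, so that they too had to differ to be tested. The pseudocount of 1 FPKM also limits how far genes of low control level can fall on this scale. The round spermatid markers had control means of 4.63 to 15.3 FPKM, so the medians do not rank the stages. The summed FPKM was 1060 to 1211 in the control libraries and 220.0 to 246.1 in the cKO libraries for pachytene markers. For round spermatid markers it was 60.0 to 126.5 against 5.30 to 7.02. Most of the pachytene sum in cKO came from Ybx2 and Hspa2, with cKO means of 134.7 and 77.2 FPKM. The other pachytene markers had cKO means of 0.00745 (Adam3) to 12.6 FPKM (Clgn). What part these marker differences have in the fall of the 10 genes was not tested. Of the somatic cell markers, 0 of 6 Sertoli cell markers were called lower and 1 higher (Rhox5, at a log2 fold change of 0.72), with sums of 14.5 to 22.9 FPKM in control. In the cKO libraries the sums were 39.6, 14.7 and 21.4 FPKM, and cKO replicate 1 stood above the others, with Cldn11 at 20.8 FPKM against 6.68 and 9.71. Without cKO replicate 1, 9 of the 10 tail genes were still called lower. Leydig cell markers (2 of 6 tested), peritubular cell markers (1 of 4 tested) and macrophage and blood markers (2 of 6 tested) had no call in either direction, and their sums were 2.95 to 14.0, 1.75 to 4.76 and 4.94 to 8.45 FPKM in control and 6.34 to 10.7, 4.19 to 4.99 and 5.16 to 6.46 FPKM in cKO. No marker on any of these lists was at 0 in all 6 libraries.

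Other proteins of the fibrous sheath were read from a fixed list of 9 genes, of which 8 were tested. Of these, 7 were lower in cKO and none higher, with a median log2 fold change of -3.16, or -3.10 with the 2 genes at 0 in cKO set to the value of 3 fragments per library. Those 2 genes passed the filter through the control libraries alone. Gapdhs, the sperm glyceraldehyde-3-phosphate dehydrogenase that is bound to the sheath, stood at 78.4, 212.8 and 77.1 FPKM in the control libraries and at 1.78, 1.87 and 2.17 in the cKO libraries, and fell by 5.23 (SE 0.37, limma adjusted p = 8.24e-05). Tcp11, a gene of sperm motility, fell by 4.65. Cabyr, a calcium-binding partner of the ropporins, fell by 3.34, and Spa17, which has the same docking domain, fell by 2.48. Fscb, a sheath protein linked to CABYR, and Aldoart1, a sperm aldolase, had 0 fragments in all cKO libraries, which puts them at least 226-fold and 75.9-fold lower than in control when each cKO library is set to 3 fragments, or 143-fold and 56.2-fold without control replicate 2. Eno4, a sperm enolase, fell by 1.56, and Rhpn1, a rhophilin that binds ropporin, was not called at a log2 fold change of -0.43. Akap14, at 0.644 to 1.09 FPKM in control and 0 to 0.114 in cKO, was under the filter.

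For partners and paralogs of the outer dense fiber proteins, 9 of 10 genes were tested, 7 were lower, none was higher, and the median log2 fold change was -2.55. Of the 9, 6 had a cKO mean under 1 FPKM and were tested through the control libraries alone. Spert fell by 5.41, and Tekt4, a tektin of the sperm tail, fell by 4.25. Ccdc42, a protein of the forming tail that binds ODF1 and ODF2, stood at 13.0, 11.4 and 10.2 FPKM in the control libraries and at 0.515, 0.507 and 0.532 in the cKO libraries, and fell by 3.04. Tssk4, a testis-specific kinase that phosphorylates ODF2, fell by 2.55, and Spag4, which binds ODF1, fell by 1.52. Of the paralogs of Odf3, Odf3l1 fell by 3.04, Odf3b fell by 1.55, and Odf3l2 was at or under 0.0527 FPKM in every library and was not tested. Spert and Odf3l1 each had 1 fragment in all over the cKO libraries. The pseudocount of 1 FPKM therefore bounds their falls, which do not rank them against genes with more fragments in cKO. Odf2l, the paralog of Odf2, stood at 8.90 to 11.7 FPKM in control and 8.48 to 9.43 in cKO and was not called (log2 fold change -0.20). Spag5, a mitotic spindle protein that binds ODF1, was likewise not called (log2 fold change -0.09).

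Subunits of protein kinase A and the anchoring proteins of other cell compartments were called in both directions. Over all genes tested, 22.2% were called lower and 11.8% higher, so these small counts do not set either family apart. Of the 6 kinase subunits 2 were lower and 1 higher, with a median log2 fold change of -0.12. Prkar2a and Prkar2b, the type II regulatory subunits, were lower at log2 fold changes of -1.34 and -0.52, and Prkacb, a catalytic subunit, was higher at 0.46. Prkar1a, Prkar1b and Prkaca were not called, at log2 fold changes of -0.14, 0.49 and -0.10. Of 11 other A-kinase anchoring proteins 9 were tested, 2 were lower and 3 higher, with a median of 0.12. Akap12 stood at 47.7, 90.5 and 47.0 FPKM in the control libraries and at 8.46, 5.95 and 7.14 in the cKO libraries and fell by 2.88. Akap1, which anchors the kinase at mitochondria, fell by 1.05. Akap8, Akap11 and Akap13 rose by 0.31, 0.47 and 0.40. Over all genes tested, 3437 were lower and 1821 higher, but after quantile normalization 2665 were lower and 4854 higher, which moved the median over all genes tested from -0.0082 to 0.20 in log2 fold change.

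**Figure D3:**
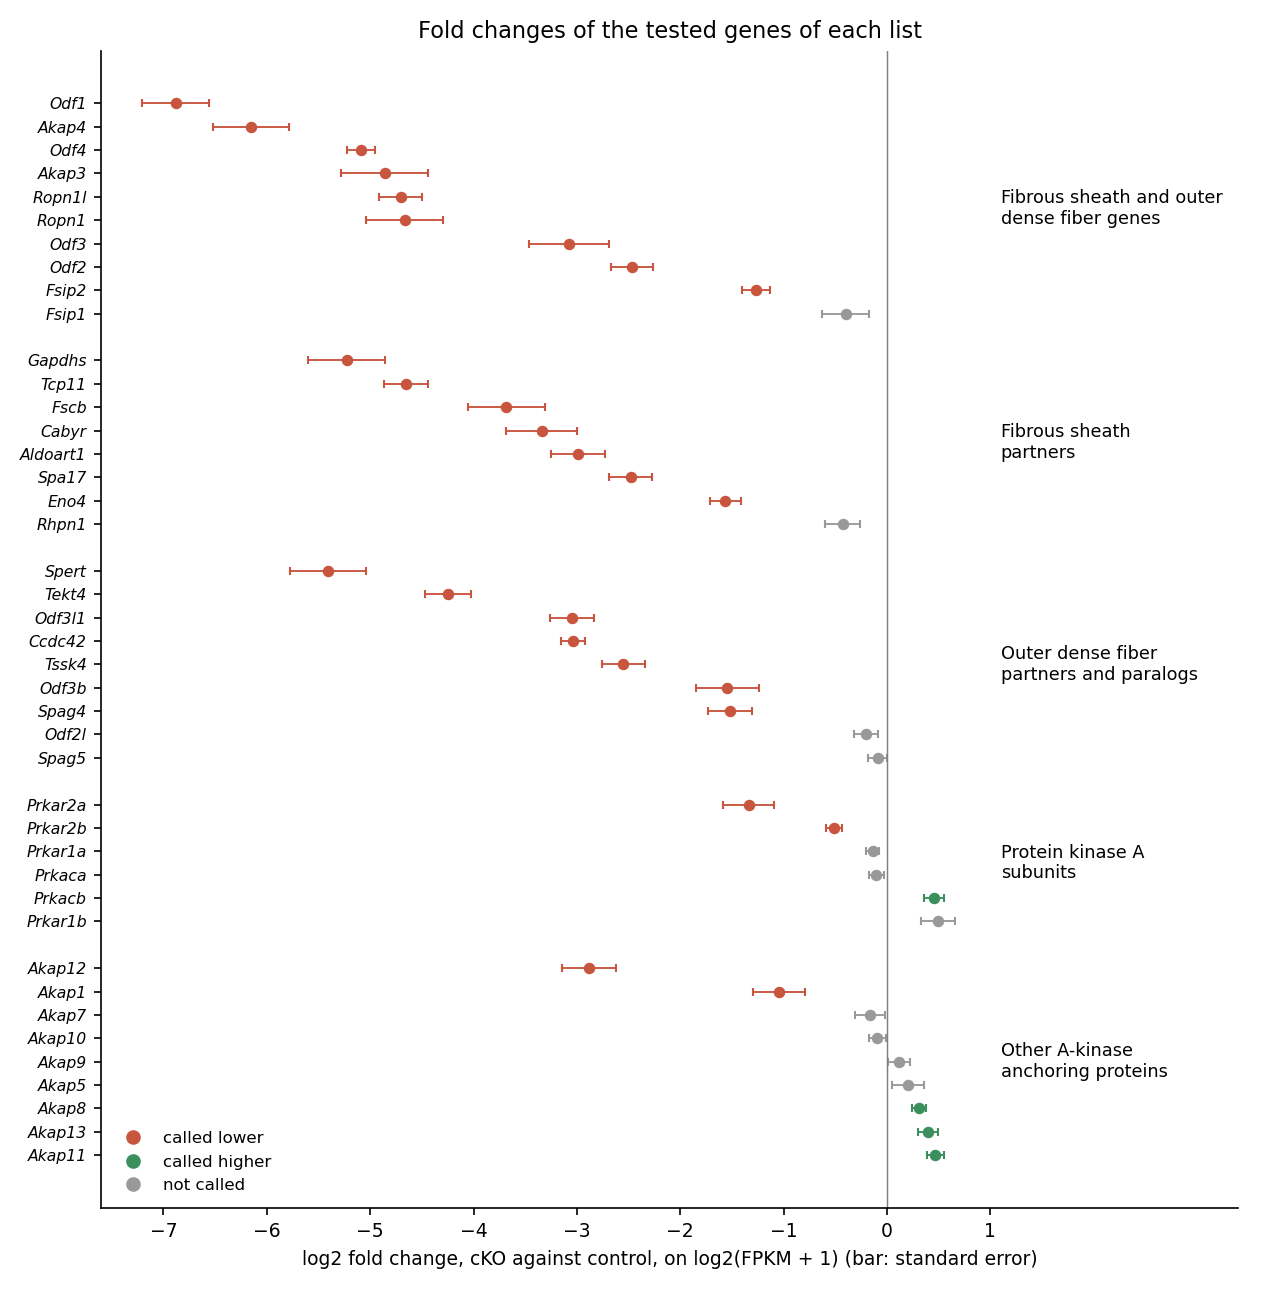
Log2 fold change of cKO against control from log2(FPKM + 1), with the SE from limma as bars, for each tested gene of 5 lists, ordered within its list and coloured by its call (red lower, green higher, grey not called). The 10 genes run from -6.88 (Odf1) to -0.40 (Fsip1), and the protein kinase A subunits lie between -1.34 and 0.49.

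The start regions of the genes differed in base composition. They follow RefSeq starts, and the windows of Ropn1 and Odf2 and the downstream window of Akap4 lay inside the gene spans given above. The GC content of the 300 bases was 68.0% to 74.3% over the 4 entries of Odf2, 58.0% for Ropn1l, 55.3% for Odf3, 55.0% for Fsip2, 50.7% for Odf4, 47.0% and 38.3% for the entries of Akap4, 45.3% for Akap3 and 43.7% for Ropn1, against a median of 52.7% over all promoters. The 4 genes above that median, Fsip2, Odf2, Odf3 and Ropn1l, kept 3.42% to 21.5% of their control expression in cKO, and of the 4 genes below it Akap3 kept 1.24%, Odf4 0.306% and Akap4 0.0781%, with 1 fragment in all for Ropn1. Without control replicate 2 the 4 genes above the median kept 3.90% to 21.2%, and Akap3 kept 2.13%. This order was seen after the values were known, is over 8 genes, and is given as a description without a test.

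**Figure D4:**
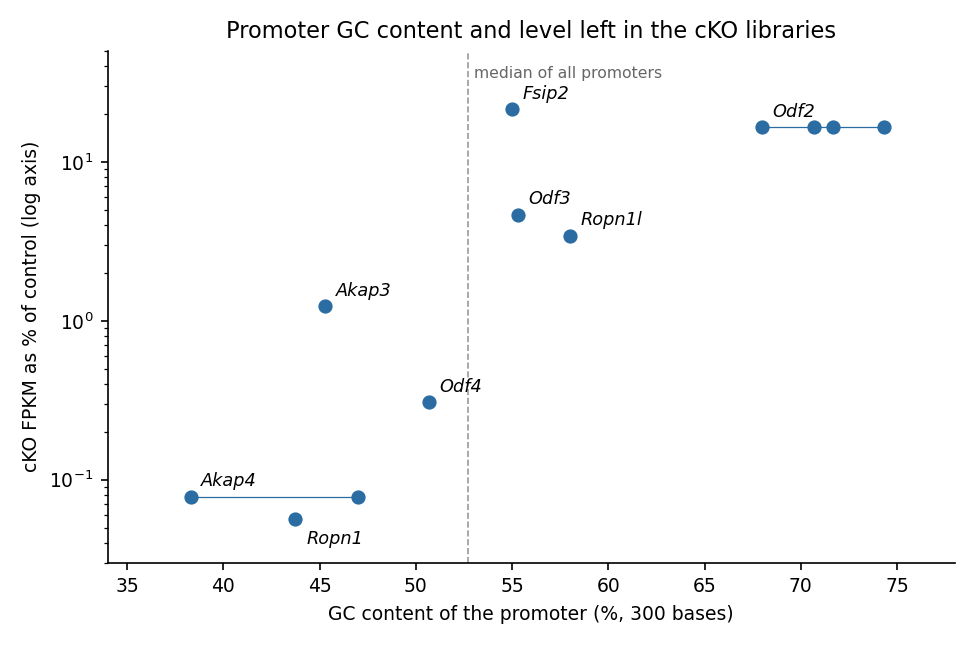
Mean cKO FPKM as a percent of mean control FPKM (log axis) against the GC content of the promoter (300 bases), for the 8 genes with a promoter entry. Points joined by a line are entries of the same gene, and the dashed line marks the median GC content of all promoters (52.7%). Fsip2, Odf2, Odf3 and Ropn1l lie to its right and above the other 4 genes, of which Ropn1 rests on 1 fragment in cKO.

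Among the motifs searched on both strands, the letters TATAAA of the TATA box were in none of the 12 entries and in 13.6% of all promoters. The letters TGACG, which begin the cAMP response element, were in 3 entries, those of Fsip2 and of 2 of the Odf2 starts, and in 20.8% of all promoters. The letters GTTGCC, a core of the motif bound by RFX factors of ciliated cells, were found for Odf3 and Ropn1l, and in 12.5% of all promoters. The 250 bases before the start of these are printed 5′ to 3′ with that core in capitals, for Odf3 at chr7:140847666-140847915 on the plus strand and for Ropn1l at chr15:31453690-31453939 on the minus strand, as the 2 of the 10 genes in which it was found.
Odf3: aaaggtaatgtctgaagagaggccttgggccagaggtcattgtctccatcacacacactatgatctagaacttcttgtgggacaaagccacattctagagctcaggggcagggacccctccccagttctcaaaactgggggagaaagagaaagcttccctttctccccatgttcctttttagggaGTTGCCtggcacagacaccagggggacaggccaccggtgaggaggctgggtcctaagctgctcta
Ropn1l: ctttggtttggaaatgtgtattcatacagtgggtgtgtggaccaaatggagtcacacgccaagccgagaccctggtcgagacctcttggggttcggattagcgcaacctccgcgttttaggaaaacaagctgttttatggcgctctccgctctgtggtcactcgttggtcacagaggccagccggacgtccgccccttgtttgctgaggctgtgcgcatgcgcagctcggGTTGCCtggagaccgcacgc
The core began 65 bases before the RefSeq start of Odf3 and 20 bases before that of Ropn1l, in the same orientation. For Odf3 it lay at chr7:140847851-140847856, inside the gene span given above, which begins further upstream than the RefSeq start. The entries of the other genes did not hold these letters.

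The genes whose pattern over the 6 libraries was most like that of a given member were found by the Euclidean distance of log2(FPKM + 1) over the whole table, the 10 genes left out. Nearest to Akap4 were H1fnt, the linker histone of elongating spermatids (distance 0.24, 54.8 to 133.5 FPKM in control and 0 in all cKO libraries), the pseudogene 1700019M22Rik (0.45) and Spz1 (0.49). Nearest to Odf1 were Gsg1 (0.82), 4933411K16Rik (1.01) and Spz1 (1.03), and control replicate 2 was the highest library for each of these. Odf2 had other neighbours, BC051142 (0.61), Morn2 (0.63) and Spata24 (0.75), with cKO levels of 9.99 to 16.5 FPKM.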

How the data were processed

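RNA-seq of 3 control and 3 cKO libraries was analysed. The authors deposited FPKM for 54532 genes, with gene lengths. HISAT2 2.0.5 and the build mm10 are named in the submitters' processing notes, and the counting tool is not given in the sources used here. In every library 100% of the FPKM values above 0 were whole multiples of 1 fragment (tolerance 0.05), so fragments were recovered. The FPKM denominator was 0.971 to 1.05 times their sum, a library factor that the labels do not describe. Intervals of fragment ratios are exact and cover counting error only, and 3 fragments were taken as the floor. Genes averaging at least 1 FPKM were tested on log2(FPKM + 1) with limma 3.58.1 (lmFit, eBayes with trend, R 4.3.3), with genotype as the only term, Benjamini-Hochberg adjustment over all genes tested and a threshold of 0.05. This scale understates the change of low genes. The fit was first run on simulated data with known changes. The 5 pairs of genes were compared with exact permutation tests (scipy 1.17.1). Gene models are GENCODE M21 on GRCm38, which matched 99.8% of the genes by ID. Alternatives were a pseudocount of 0.1, no filter or a mean of at least 5 FPKM, median of ratios, quantile normalization, FPKM without the library factor, limma-voom on the fragments, eBayes without trend, a replicate block, a log2 fold change of at least 1, and leaving out each library. Genes named are the 10 members, Srsf1, genes of the lists described, and the 3 genes nearest to each of Akap4, Odf1 and Odf2. The 10 genes, the lists and the motifs were chosen with earlier results of these data known, and the variant TGATGTCA and the comparison of GC content were added after the sequences had been seen. The shares and bounds without control replicate 2 and the marker ratios without Insl3 or Acta2 were likewise added after the data had been seen.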

Additional observations from a re-analysis of the deposited data

How the results depend on the processing

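The count of the 10 genes called lower was 9 as designed and under each alternative, except 8 with a filter at a mean of 5 FPKM, which leaves out Fsip2, and none of the 10 was called higher under any. The 9 genes kept their direction and call under every alternative in which they were tested, and Fsip1 was called under none. The number of all genes called higher, 1821 as designed, was 4854 with quantile normalization, 891 with the replicate block, 177 with a log2 fold change of at least 1 and 965 to 1752 when each library was left out in turn. It was 965 without cKO replicate 3, 1065 without control replicate 1, 1082 without control replicate 3 and 1178 without cKO replicate 1. The number called lower, 3437 as designed, was 1950 with the filter at 5 FPKM and 1939 with a log2 fold change of at least 1, both of which admit fewer genes by construction. For the other settings the cause was not tested. The difference of Ropn1l and Ropn1 turned from -0.04 to 2.90 with a pseudocount of 0.1. Libraries with the same replicate number did not deviate together (Pearson correlations over genes of -0.0014, -0.11 and 0.016), so the numbers were not taken as pairs. With the replicate block 9 of the 10 genes were still called lower, and 2870 genes of all. Depth limits the fold changes of Akap4, Odf1, Odf4 and Ropn1, which rest on 1 to 9 fragments over the 3 cKO libraries.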
